A study of Homo sapiens with 5 samples.

Results

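H2A-K130ac peaks at gene 3′ ends were examined in C4-2B cells after abiraterone or Romidepsin. They are the peaks that the authors' annotation places in a 3′ untranslated region (3′ UTR) or, under the label Downstream, within 300 bp past the end of a transcript. Of the 67806 annotated abiraterone peaks 962 carried such a label, and of the 91398 annotated Romidepsin peaks 1505 did, together 2467 of 159204. The label was given from position alone, so height played no part in the choice. Width could play one, since a wider peak covers more positions.

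C4-2B is a human castration-resistant prostate cancer cell line derived from LNCaP. Abiraterone blocks CYP17A1, an enzyme of androgen synthesis, and Romidepsin inhibits histone deacetylases. The chromatin was immunoprecipitated with an antibody against histone H2A acetylated at lysine 130 and sequenced, with 1 library for each treatment. The labels call the cells breast cancer, whereas the study uses them as prostate cancer cells. The treatment protocol in the labels describes VCaP cells given 0.5 µM Romidepsin overnight, and the dose and time for the C4-2B libraries are not given in the sources used here. No untreated C4-2B library was analysed here, and neither were the 3 VCaP samples (DMSO, Romidepsin and input). With 1 library for each treatment no test between treatments was made, and peaks of 1 library are not replicates of it. Each value therefore describes these libraries, and the exact 95% intervals cover counting error only.

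The 3′ UTR is the part of a messenger RNA between the stop codon and the poly(A) tail. It holds sites for microRNAs and RNA-binding proteins, and its far end is set when the nascent transcript is cleaved and polyadenylated. Acetylation of histone tails is best known from promoters and enhancers, while marks that travel with elongating RNA polymerase spread over gene bodies towards the 3′ end. In the deposited lists each peak carries 2 pieces of annotation that need not concern the same gene. One is the genomic class, such as 3′ UTR. The other is a gene, which is the one whose transcription start lies nearest to the peak.

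How far these can part was plainest for peaks named after microRNA genes, whose precursors are far too short to hold a 3′ UTR of the usual kind. In the abiraterone list 13 of the 3′-end peaks carried the names of 12 microRNA genes, and in the Romidepsin list 38 carried the names of 36, with no microRNA gene in both. MicroRNA genes were 1.44% and 2.71% of the genes named at 3′-end peaks, against 4.27% and 4.31% of those named at any peak. Part of this gap is built in, since a 3′ UTR belongs to a coding transcript. None of these peaks touched the precursor it was named after (0 of 13 and 0 of 38). This follows from the labels, since peaks within 3 kb of a start are placed in the promoter class. The least distance to a precursor's start was 5210 bp under abiraterone and 3041 bp under Romidepsin. The median distance to the precursor's start was 30358 bp in the abiraterone list and 15585 bp in the Romidepsin list. The nearest known transcript end belonged to another gene at 12 of the 13 peaks and at 32 of the 38. It lay within 3 kb at 9 of these 12 and at 30 of these 32. Mature sequences from RefSeq (table of GRCh38.p14) are shown for the shortest annotated transcripts at 3′-end peaks, with the seed (bases 2 to 8, which pairs with target sites in 3′ UTRs) in capitals.
hsa-miR-921: cUAGUGAGggacagaaccaggauuc
hsa-miR-1252-5p: aGAAGGAAauugaauucauuua
hsa-miR-4491: aAUGUGGAcuggugugaccaaa
hsa-miR-4718: aGCUGUACcugaaaccaagca
hsa-miR-4272: cAUUCAACuagugauugu
The precursor of miR-921 measured 56 bp, and the abiraterone peak named after it (chr1:166026440-166026703) lay 97332 bp from its start. The nearest known end there was that of FAM78B. The pair of abiraterone peaks named MIR1252 had SYT1, the calcium sensor of synaptic vesicle release, as the gene with the nearest end, and the MIR4491 peak had POU2AF1, a B cell transcriptional coactivator. Under Romidepsin the MIR4718 peak had SNX29 and the MIR4272 peak SUCLG2, a subunit of succinate-CoA ligase. MIR1976, the other of the 3 shortest in that list, had RPS6KA1, a ribosomal S6 kinase, and the peak covered that gene's end. The mature sequences matched over both lists numbered 62 and carried 62 different seeds, so no seed family was shared. Some further microRNA names, picked out after their values were seen, fell to peaks with their nearest known end in a well known gene. The abiraterone peak named MIR944 had its nearest end in TP63, which encodes the p53 family member p63. That named MIR4440 had its nearest end, 3814 bp away, in HDAC4, a class IIa histone deacetylase. The Romidepsin peak named MIR943 had its nearest end in NSD2, a histone H3 lysine 36 methyltransferase, and that named MIR5685 in ELOVL5, a fatty acid elongase.

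Peaks at 3′ ends made up 1.42% of the abiraterone list (interval 1.33 to 1.51%) and 1.65% of the Romidepsin list (1.57 to 1.73%). By label, 914 abiraterone and 1413 Romidepsin peaks lay in 3′ UTRs, and 48 and 92 were Downstream. For each Romidepsin peak there were 0.639 abiraterone peaks at 3′ ends, against 0.742 over all peaks. The 3′-end peaks were thus a slightly smaller share of the shorter list. The labels give 40000000 to 50000000 reads for each library, but no reads per peak. With 1 list for each treatment it cannot be told whether this gap exceeds the spread between libraries.

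The gene named at a 3′-end peak was often not the gene that ended there. The end of the named transcript fell inside the peak in 7.59% of the abiraterone and 8.70% of the Romidepsin members, and within 3 kb in 45.1% (41.9 to 48.3%) and 47.2% (44.7 to 49.8%). Measured to the nearest end of any transcript named in either list, the shares within 3 kb were 77.4% and 79.0%. The gene with the nearest start and the gene with the nearest known end were the same for 589 abiraterone peaks (61.2%) and 929 Romidepsin peaks (61.7%). About 1 peak in 4 lay upstream of the start of the gene it was named after, 245 (25.5%) and 355 (23.6%), which no 3′ end of that transcript can do. Another 216 (22.5%) and 400 (26.6%) lay past its end, and 501 (52.1%) and 750 (49.8%) inside it. Lying upstream of the named start was commoner elsewhere, with 45.1% and 45.0% over all peaks of the lists. It was found for 27.9% and 29.2% of the exon peaks and 31.6% and 30.8% of the intron peaks. For comparison, the named transcript ended within 3 kb of 10.9% and 12.6% of the exon peaks, and of 1.52% and 1.63% of the intron peaks. Not every end is known from these lists, which give limits only to transcripts nearest to some peak. For 81 abiraterone (8.42%) and 149 Romidepsin members (9.90%) no known end lay within 10 kb.

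The Downstream peaks sat closer to ends, as their definition requires. Of the 48 in the abiraterone list 41 lay within 300 bp of a known end, and of the 92 in the Romidepsin list 87 did. On either side of the 300 bp limit peaks were found in similar numbers under abiraterone. In the first 300 bp past the end of their named transcript there were 51 abiraterone peaks labelled Downstream or intergenic, with a median width of 369 bp, and in the next 300 bp there were 53, with 305 bp. Under Romidepsin the counts were 111 and 83, with median widths of 331 and 338 bp.

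No rise in the number of peaks was seen at transcript ends. So that a peak could not pick the site it was measured from, the ends and starts were taken from the annotation of the other list, and peak centres were counted in windows of 500 bp over 5 kb to each side. Around 19735 ends the abiraterone peaks numbered between 1.04 and 1.48 per 100 ends in every window, with 1.36 in the last window before the end and 1.42 in the first one past it. Around 16073 ends the Romidepsin peaks numbered between 1.90 and 2.26, with 2.00 before and 2.20 past the end. The exact 95% Poisson interval was 1.78 to 2.23 for the former and 1.98 to 2.44 for the latter. A peak was counted once for each end within 5 kb, so the counts are not independent and these intervals may be too narrow. The lowest abiraterone window (1.04, 0.901 to 1.19) lay more than 4 kb inside the transcript, and neither window next to the end was the highest of its list. At transcript starts the Romidepsin windows ranged from 1.72 to 2.63, with the lowest value in the first 500 bp of the transcript. The abiraterone windows at starts ranged from 1.25 to 1.62.

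**Figure D1:**
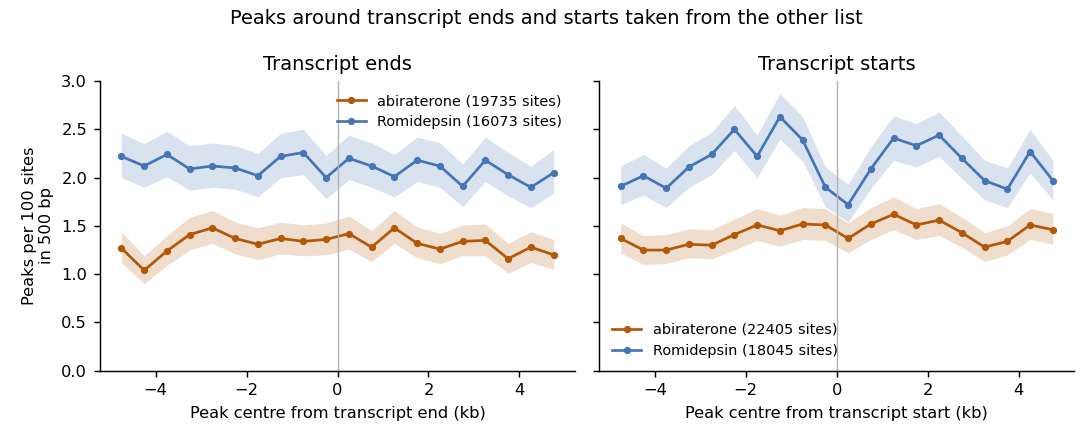
Peaks per 100 transcript ends (left) and starts (right) in 500 bp windows, against the distance of the peak centre in kb, with negative values upstream. Lines show the 2 lists, shading is the exact 95% Poisson interval (counting error only), and sites come from the other list. A peak near several sites is counted at each, so the intervals may be too narrow. Around ends the abiraterone windows lie between 1.04 and 1.48 and the Romidepsin windows between 1.90 and 2.26, with no rise at 0.

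Genes named at 3′-end peaks were short compared with genes named at peaks elsewhere. The annotated transcript had a median length of 19267 bp in the abiraterone list (17883 to 21978) and 14762 bp in the Romidepsin list (13852 to 16128). At all other peaks it was 42704 and 36014 bp. Among the other classes, intron peaks had medians of 78138 and 67474 bp, exon peaks 29056 and 23434 bp, and promoter peaks 23336 and 18956 bp. Transcripts of 200 kb or more were named at 29 abiraterone members (3.01%) and 37 Romidepsin members (2.46%), against 17.4% and 14.7% of the other peaks. Transcripts under 10 kb were named at 28.4% and 36.5%, against 23.7% and 25.6%. The direction was shared by both lists, and the lower median belonged to Romidepsin in each class.

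The genes of the members were longer when chosen by their end. The other peaks kept the gene of the nearest start, so the gap to them was not measured on like terms. Taking in place of the nearest start the gene with the nearest known end gave medians of 32769.5 bp (28566 to 36609) and 23785 bp (21801 to 25723), the former above and the latter close to the median of the exon peaks' named genes. Where the choices differed, the gene named by its start had a median length of 19693 bp and the gene that ended nearest 64297 bp in the abiraterone list. For Romidepsin these were 15734 and 48312 bp.

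**Figure D2:**
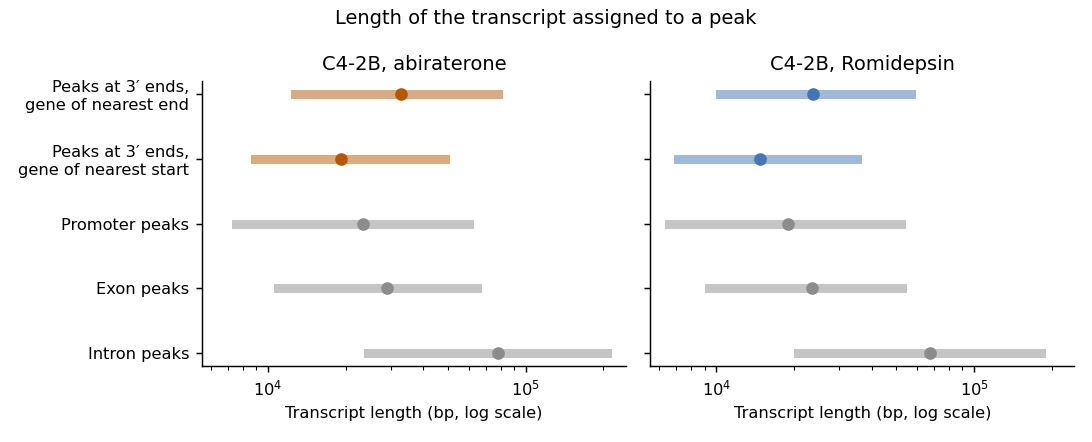
Length in bp (log axis) of the transcript assigned to a peak, by class, in the abiraterone (left) and Romidepsin list (right). Points are medians and bars run from the first to the third quartile. Peaks at 3′ ends are shown with the gene of the nearest start (medians 19267 and 14762 bp) and with the gene of the nearest known end (32769.5 and 23785 bp).

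The longest transcript was also one whose own end lay elsewhere. DMD, which encodes dystrophin, was the longest transcript named in both lists, with 1293027 bp. Its abiraterone peak (chrX:32534498-32534853) had a fold of 2.83 over the control and its Romidepsin peak (chrX:32534374-32534857) a fold of 1.74, and the abiraterone peak lay wholly within the other. Both lay upstream of the start of the transcript they were named after, by 104127 and 104003 bp, and both covered the end of another DMD transcript.

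Peaks at 3′ ends were somewhat wider than the rest of their lists. The median width was 351 bp in the abiraterone list (341 to 360) and 379 bp in the Romidepsin list (367 to 388), against 339 and 348 bp for all other peaks. The interquartile range ran from 225 to 480.5 bp and from 259 to 521 bp. Exon peaks were wider still, with 364 and 390 bp, as were 5′ UTR peaks, with 368 and 396 bp. Intron peaks had 337 and 344 bp. A wide peak reaches a short region such as a UTR or an exon more easily. How much this adds to the difference was not tested. Downstream peaks alone had medians of 347 and 323 bp, so in the Romidepsin list the greater width was that of the 3′ UTR peaks (381 bp). Peaks of 800 bp or more numbered 30 (3.12%) and 68 (4.52%), against 2.42% and 2.98% of the others. Width moved with the caller's q-value. Members with a −log10 q of at least 2 had median widths of 385 and 458 bp, and those below it 342 and 378 bp.

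Widths were compared across gene lengths. Abiraterone members named after transcripts under 10 kb had a median width of 377 bp (355 to 392), those of 10 to 50 kb 346 bp (330 to 360) and those of 200 kb or more 335 bp (234 to 377). The corresponding Romidepsin medians were 386, 375 and 367 bp. Short genes thus had the widest members in the abiraterone list, with intervals that meet those of the next class, and the Romidepsin classes were closer together. Over the 962 abiraterone members Spearman's rank correlation between gene length and width was -0.0995, and over the 1505 Romidepsin members it was -0.0105. All points of a list share 1 library, and several share a gene.

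**Figure D3:**
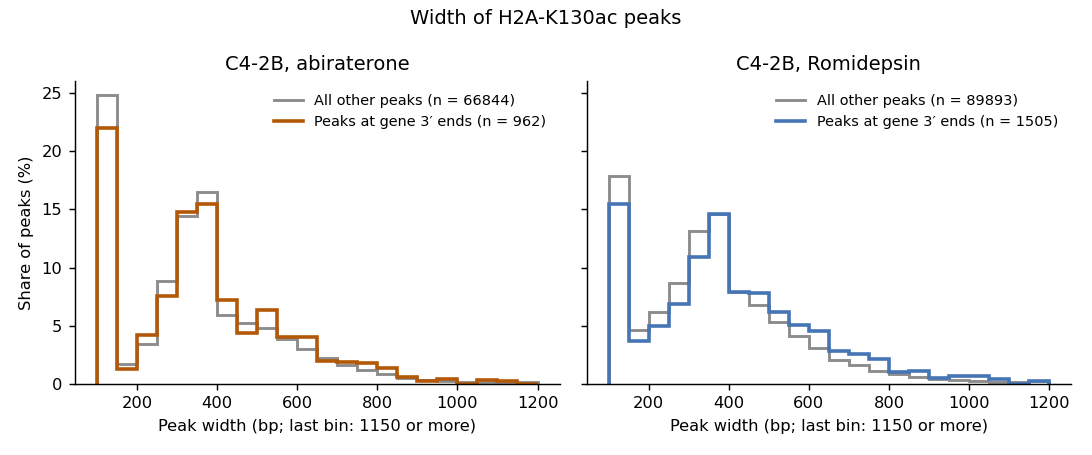
Share of peaks (%) by width in bins of 50 bp, for peaks at gene 3′ ends (coloured) and all other peaks (grey) in the abiraterone (left) and Romidepsin list (right). The medians are 351 against 339 bp and 379 against 348 bp, and a narrow mode near the minimum of 125 bp stands apart in both lists.

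The widest abiraterone members were named MTERF4, a mitochondrial ribosome biogenesis factor (1119 bp), and GABPB1-AS1, an antisense RNA (1105 bp). MTRES1, a mitochondrial RNA-binding protein, and MRGPRF, an orphan receptor, followed with 1062 bp each. The peak at MRGPRF stopped 85 bp before one. The widest Romidepsin member was named C4orf36 (1661 bp) and lay 11103 bp before the nearest known end. The next, of 1597 bp, was named LY9, and its nearest end, 319 bp away, was that of CD244. Both genes encode SLAM family receptors of immune cells. The third, of 1507 bp, was named RASSF5, a Ras effector, and covered the end of IKBKE, a kinase of innate immune signalling. GCC1, a Golgi protein (1214 bp), and FMNL3, a formin with the end of the splicing factor gene PRPF40B near by (1095 bp), completed the 5.

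Many of the narrowest abiraterone members came in close pairs. Peaks narrower than 135 bp, near the minimum width of 125 bp, made up 202 abiraterone members (21.0%) and 212 Romidepsin members (14.1%), against 24.1% and 16.4% of all peaks. In the abiraterone list 93 neighbouring pairs of members lay within 1 kb of each other, and in 70 of them both peaks were this narrow. Their centres stood 317 bp apart in the median, with a middle range of 294 to 343 bp. Both peaks were narrow in 21 of 91 such Romidepsin pairs, with a median spacing of 322 bp. The labels give a fragment size of 300 bp, and whether the spacing depends on it was not tested. Any peak within 1 kb was found for 26.5% of the abiraterone members and 30.5% of the other peaks, and for 18.6% and 18.1% in the Romidepsin list. Abiraterone peaks with such a neighbour had a median width of 126 bp among members and other peaks alike, against 386 and 376 bp without one. For Romidepsin the medians were 278 and 168 bp with a neighbour and 389 and 363 bp without. Narrow pairs were not counted over all peaks.

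The folds of the members were close to those of the whole list. The median fold over the control was 2.83 in the abiraterone list and 2.61 in the Romidepsin list, the same as for all other peaks. Many folds were tied, with 146 of the 962 and 433 of the 1505 members at the commonest value, so the medians tell little of small shifts. Folds were not normalized between libraries and are not compared between them. A −log10 q of at least 2, that is a q-value of 0.01 or less, was reached by 229 abiraterone members (23.8%, 21.1 to 26.6%), against a background of 24.9% over all peaks of the list. Of the Romidepsin members 30 reached it (1.99%, 1.35 to 2.83%), against 2.73%. At 1.3 the shares were 87.3% against 89.2% and 10.1% against 12.6%. In both lists and at both levels the 3′-end share was slightly below the background. Many peaks had the same p-value, and the 4 commonest values covered 43.7% and 65.9% of the members, so ranks near the middle of a list carry little information.

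The abiraterone peak of highest fold (12.3) lay at chr19:6006473-6006667 and was 195 bp wide. It was named RANBP3-DT, a long non-coding RNA, and the nearest known end was that of RFX2, a transcription factor of ciliogenesis and spermatogenesis, 13298 bp further on. MYO9A, an unconventional myosin, followed with a fold of 9.36, and that peak covered a MYO9A end. The peak at DDX55, an RNA helicase gene, had a fold of 8.96 and lay 704 bp past the known end. The Downstream peak at CYP1B1-AS1 had a fold of 8.55 and lay 278 bp past it. The fifth, with a fold of 8.51, was named FEZF1, a transcription factor of the developing forebrain, although it lay 88395 bp upstream of its start. The nearest known end there, 74482 bp away, was that of CADPS2, which acts in vesicle exocytosis. So only MYO9A and CYP1B1-AS1 of these 5 had their own end within 300 bp of the peak.

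In the Romidepsin list the highest fold was 6.97 (−log10 q 5.29), at chr15:78462956-78463493. The peak was named IDH3A, a subunit of mitochondrial isocitrate dehydrogenase, lay 72 bp past that transcript's end and covered the end of ACSBG1, an acyl-CoA synthetase. The next was a Downstream peak with a fold of 6.35, 4 bp past the end of FXR1, an RNA-binding protein gene, and 408 bp past the end of DNAJC19, a mitochondrial co-chaperone gene after which it was named. MYOCD, a coactivator of smooth muscle genes, and SAR1B, a GTPase of COPII vesicles, both had a fold of 6.10. The SAR1B peak covered the end of its transcript, and the MYOCD peak lay 2811 bp before it. SEMA6D, a semaphorin, had a fold of 6.02, 240 bp before its end. Of these 5 the named gene was also the gene with the nearest end in MYOCD, SAR1B and SEMA6D.

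Most genes had a single 3′-end peak. In the abiraterone list 831 genes were named, 716 at 1 peak, 100 at 2, 14 at 3 and 1 at 4. Romidepsin peaks named 1327 genes, 1169 at 1 peak, 140 at 2, 16 at 3 and 2 at 4. TFDP2, a partner of E2F factors, had the 4 abiraterone peaks, with folds of 2.67, 3.58, 3.69 and 2.76. For the last 3, which lay side by side, the nearest known end was that of GK5, a glycerol kinase family gene. RANBP3-DT, STON2 and PLCD4 had 3 each, and so did further genes with equal counts. At PLCD4, a phospholipase C, all 3 had a PLCD4 end as the nearest. FANK1 and SCML4 had 4 each under Romidepsin. The FANK1 peaks, with folds of 2.61, 2.58, 3.44 and 4.35, lay 14495 to 19409 bp before the nearest known end. At SCML4, a polycomb family gene, 3 peaks lay up to 2510 bp before its end, and the fourth was near the end of SEC63, a gene of endoplasmic reticulum translocation. The 3 peaks named CASC15, a long non-coding RNA, had the end of its antisense neighbour NBAT1 as the nearest. The 3 named ESD had those of LRCH1 and, for 1 peak, the serotonin receptor gene HTR2A.

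A minority of the genes named at 3′-end peaks were named under both treatments. By nearest start 127 were in both lists, 15.3% of the abiraterone genes (12.9 to 17.9%) and 9.57% of the Romidepsin genes (8.04 to 11.3%). For exon peaks these shares were 27.2% and 17.1%, for promoter peaks 35.4% and 22.9%, and for any peak the background was 86.0% and 71.1%. Classes with more peaks name more genes, so these shares rise with the number of peaks in a class. By nearest end the number in both lists was 112. In 35 of the 127 genes the closest members of the lists overlapped, in 26 they lay up to 1 kb apart, in 37 between 1 and 10 kb and in 29 farther. The median gap was 1098 bp.

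By position, 43 abiraterone members (4.47%, 3.25 to 5.97%) overlapped a Romidepsin peak of any class, against a background of 4.04% over the whole list. Of the Romidepsin members 41 (2.72%, 1.96 to 3.68%) overlapped an abiraterone peak, against 2.90%. Both shares were near the background. In 39 of the 43 overlapping pairs of the abiraterone members the partner was a 3′-end peak too. The class is given from position, so peaks that overlap mostly share it. These 39 pairs named 36 genes and shared between 2 and 626 bp, with a median of 140 bp. At least 50% of both peaks was shared in 12 pairs. Over all 39 pairs, a −log10 q of at least 2 was reached by 9 of the 39 peaks under abiraterone and by 0 of the 37 under Romidepsin, beside 24.9% and 2.73% over all peaks of the lists.

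The pairs to name were picked by the lower of both folds, which served as an order only, since folds are not on a common scale. The first by this order was NHSL1-AS1, with a fold of 4.75 under abiraterone (chr6:139018329-139018575) and 4.35 under Romidepsin (chr6:139017831-139018369), but only 41 bp were shared. TRABD2B, a Wnt-cleaving metalloprotease gene, had folds of 3.80 and 4.35 and 304 bp in common. At the site named SAP30L-AS1 (2.85 and 3.47) the abiraterone peak covered the end of GALNT10, a mucin-type O-glycosylation enzyme gene. The peaks named TTLL5 had folds of 2.83 and 3.48, and no known end lay within 10 kb.

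Side-by-side narrow peaks recurred in both lists at the end of KCNK13, a potassium channel gene, under the name PSMC1. The abiraterone peaks were chr14:90651302-90651427 and chr14:90651596-90651720, both with a fold of 2.83. The Romidepsin peaks were chr14:90651289-90651414 and chr14:90651623-90651747, both with a fold of 3.44, and 113 and 98 bp were shared. At SRPRB, a subunit of the signal recognition particle receptor, a pair of abiraterone peaks of 125 and 128 bp met a single Romidepsin peak of 522 bp. Further pairs among the 20 were named IL16, RNF213, KIF3B, SNORA28, ADAM15, MPZL1, HLX, PRKCQ, FAM174B, SCNN1G and GNLY. In most of them the Romidepsin fold was 2.61 or 3.44 to 3.48, values at which many peaks of that list were tied. In 38 of the 39 pairs both peaks were named after the same gene, and in the remaining pair after NAXE and GPATCH4. The name too is given from position, so this says little about the treatments.

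**Figure D4:**
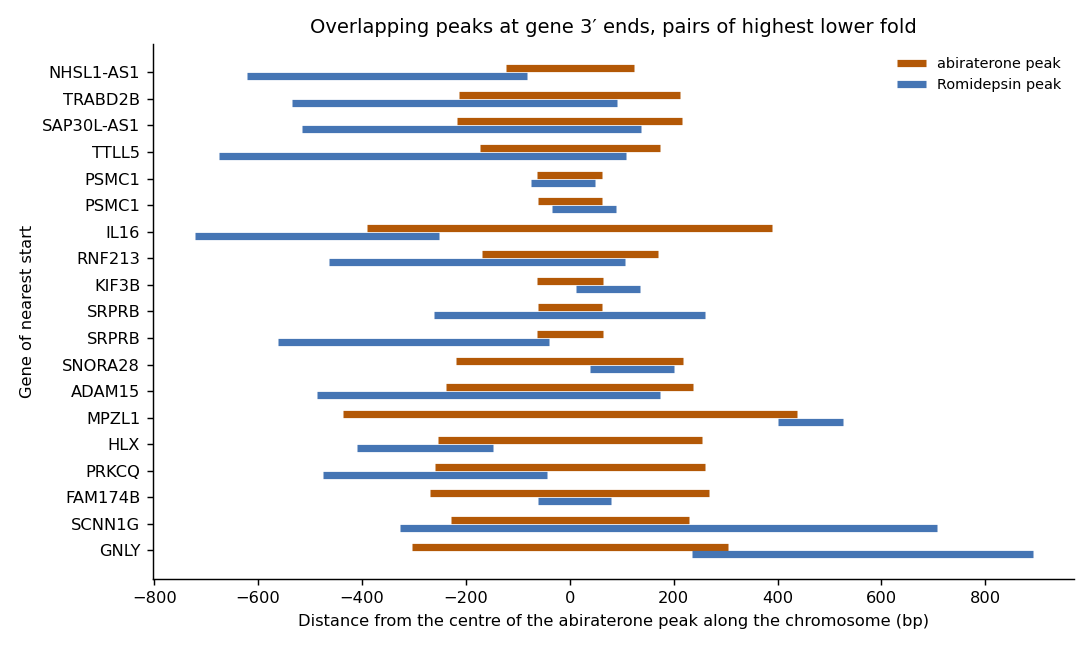
Extent of the abiraterone and Romidepsin peaks at overlapping pairs among the 20 of highest lower fold, in bp from the centre of the abiraterone peak along the chromosome, ordered by that fold. Rows bear the gene of the nearest start. The shared stretch ranges from 24 bp at the second SRPRB pair to 460 bp at SCNN1G.

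Genes of pathways tied to the treatments or to 3′ ends were counted next. Over all genes with any peak, 6.10% in the abiraterone list and 8.04% in the Romidepsin list were named at a 3′-end peak. Of the sterol and fatty acid genes with any peak 0 of 15 were named at an abiraterone 3′-end peak (upper exact limit 21.8%) and 3 of 19 (15.8%, 3.38 to 39.6%) at a Romidepsin one. Among these was ACSL1, an acyl-CoA synthetase, whose peak had a fold of 2.61, was 505 bp wide and covered the end. Its −log10 q was 0.717.

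Of the androgen synthesis and breakdown genes 0 of 14 were named in the abiraterone list and 2 of 15 (13.3%, 1.66 to 40.5%) in the Romidepsin list. The peak named CYP17A1, the target of abiraterone, was 125 bp wide with a fold of 2.61. It lay 14204 bp past the end of CYP17A1 and covered the end of its neighbour WBP1L. The peak at SRD5A2, a steroid 5-alpha-reductase, had a fold of 3.48 and lay 1574 bp before its end. Of the genes of the androgen receptor program 0 of 17 and 1 of 13 were named. That 1, NDRG1, had CCN4 as the gene with the nearest end. A further Romidepsin peak, named TULP1 and with a fold of 3.44, had its nearest end, 9161 bp away, in FKBP5, a co-chaperone of steroid receptors.

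Lysine acetyltransferase genes had no 3′-end peak (0 of 7 and 0 of 5 with any peak). Of the deacetylase genes 1 of 9 was named in the abiraterone list and 0 of 12 in the Romidepsin list. The abiraterone peak at SIRT1, an NAD-dependent deacetylase, was a Downstream peak 120 bp past the end, and its fold was 3.75 and its −log10 q 2.66. By nearest end, HDAC4 joined it under abiraterone (fold 3.58, named MIR4440). Under Romidepsin a peak of 736 bp named LINC02880 covered the end of HDAC2, one of the deacetylases that the drug inhibits. Its fold of 1.74 and −log10 q of 0.240 were the lowest values found in that list.

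Among the cleavage and polyadenylation genes CSTF2T, a subunit of the cleavage stimulation factor, was named in the abiraterone list (1 of 14, fold 2.83, 148 bp before its end). PAPOLG, a poly(A) polymerase, was named in the Romidepsin list (1 of 15, fold 2.61). Of the genes of the microRNA pathway 4 of 7 were named at abiraterone 3′-end peaks (57.1%, 18.4 to 90.1%) and 1 of 11 at a Romidepsin one (9.09%). The 4 were AGO1, AGO3, DICER1 and TNRC6A, but each of these peaks lay upstream of the gene's start, and by nearest end they were those of AGO4, AGO1, CLMN and, 90903 bp away, RBBP6. The Argonaute genes AGO1, AGO3 and AGO4, whose proteins carry microRNAs to their targets, stand side by side on chromosome 1. The peak at the end of AGO4 had a fold of 3.58 and lay 2926 bp before it, and the peak at the end of AGO1 had a fold of 4.48 (−log10 q 2.87) and lay 166 bp before it. A Romidepsin peak at the end of AGO3, named TEKT2, had a fold of 4.09 and lay 378 bp before it. By nearest end the counts were 3 under abiraterone, with XPO5, the exporter of microRNA precursors, as the third, and 1 under Romidepsin. With lists of this size the shares have wide intervals.

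Zinc finger genes of the C2H2 class, many of them repressors clustered on chromosome 19, were named in 11 of 268 cases (4.10%, 2.07 to 7.23%) in the abiraterone list and in 26 of 350 (7.43%, 4.91 to 10.7%) in the Romidepsin list. The intervals include the 6.10% and 8.04% of all genes. ZNF268 and ZNF397 were named in both lists, ZNF397 with folds of 4.72 and 2.61 at the end of MAPRE2, a microtubule-binding protein gene. Of the core histone genes 0 of 20 and 1 of 23 were named, the latter being H2AZ2, which encodes a variant of H2A (fold 2.58, 537 bp before its end).

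The share of peaks at 3′ ends varied between chromosomes. It was highest on chromosome 19, with 22 of 757 abiraterone peaks (2.91%, 1.83 to 4.37%) and 64 of 1469 Romidepsin peaks (4.36%, 3.37 to 5.53%). Chromosome 17 followed in the Romidepsin list with 3.15%, and chromosomes 22 and 20 in the abiraterone list with 2.67% and 2.59%. The X chromosome had 0.850% and 0.703%, chromosome 21 had 0.820% and 0.656%, and chromosome 13 had 0.695% and 1.16%. The gene-dense chromosomes 17, 19 and 22 thus stood in the upper part of the order in both lists. Chromosome 3 was the only one with more members under abiraterone (84) than under Romidepsin (69), a ratio of 1.22, and over all its peaks the ratio was 1.28.

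**Figure D5:**
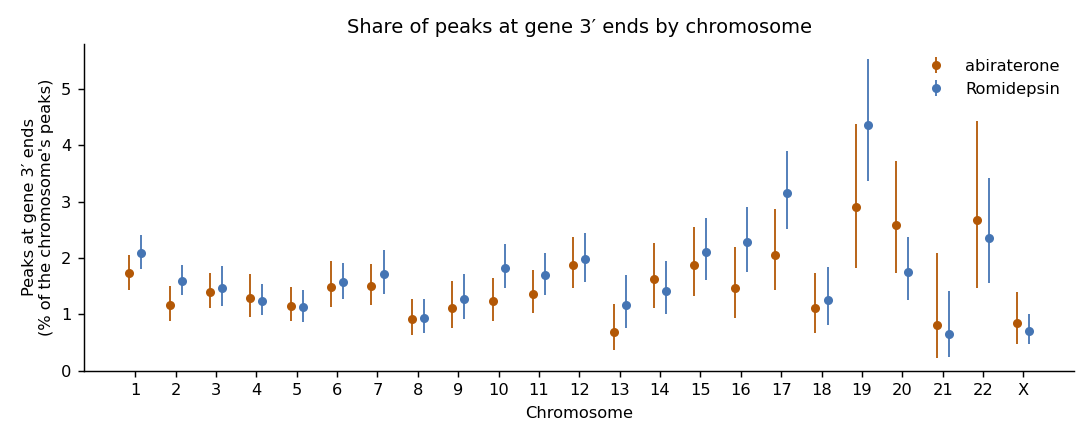
Peaks at gene 3′ ends as a percentage of all peaks of each chromosome in both lists, with exact 95% binomial intervals (counting error only). Chromosome 19 is highest with 2.91% and 4.36%, and the X chromosome has 0.850% and 0.703%. The Y chromosome, with 0 of 27 and 0 of 36 peaks, is not drawn.

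By gene type, 91.8% of the abiraterone and 90.7% of the Romidepsin genes named at 3′-end peaks were protein coding, against 83.2% and 83.4% of the genes named at any peak. Long non-coding RNAs made up 5.42% and 4.82%, against 8.48% and 8.13%. A 3′ UTR belongs to a coding transcript, so part of these gaps is built into the choice of members. A promoter peak in the same list was present at 203 of the 831 abiraterone genes (24.4%, 21.5 to 27.5%) and at 456 of the 1327 Romidepsin genes (34.4%, 31.8 to 37.0%). For genes with an exon peak the shares were 24.6% and 34.9%, and for genes with any peak outside promoters 20.8% and 29.9%. Genes named at 3′-end peaks were thus close to genes named at exon peaks in this respect.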

How the data were processed

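For C4-2B, 1 library after abiraterone and 1 after Romidepsin were used as lists of peaks, from chromatin immunoprecipitated for H2A-K130ac. According to the labels, reads were aligned with BowTie 2 and peaks found with MACS (MACS2 in the submitters' processing notes). The score, the −log10 p- and q-values and the fold (a ratio over the control) of each peak were deposited by the authors and used as they stand. The names of the deposited lists give input as the control, whereas the study's reporting summary gives the vehicle-treated sample and broad peaks; the lists hold narrow peaks, and no C4-2B control was analysed here. The score was not used further. The annotation columns were deposited as well, in the annotated table of the optimal peaks. In that table the first peak had become the header, so each list lacks 1 peak, and the table of conservative peaks was identical. The labels give 40000000 to 50000000 reads per library, but reads per peak are unknown. The study ran samples in duplicate, and whether duplicates were pooled into the 1 list of each sample is not stated.

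The processing notes list hg38. The last peak on chromosome 1 ends at 249191832, which lies beyond that chromosome in hg38 and within it in hg19, and the transcript identifiers are those of UCSC for hg19, so positions are given as hg19. RefSeq tables of GRCh38.p14 served for names, gene types, gene order and microRNA sequences only. Of 18406 gene identifiers 18316 matched, and of the 2031 genes named at members 2024.

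Members were the rows labelled 3′ UTR or Downstream. Known ends were the ends of the 29513 transcripts of 18406 genes named in either list. Overlap meant any shared base pair. Shares carry exact (Clopper-Pearson) 95% intervals and medians 95% order-statistic intervals. No test between treatments or peak classes was made. The members and gene lists were chosen with earlier results of these data known. Genes were named by rule, namely those at the 5 peaks of highest fold, the 5 widest, the longest and 3 shortest transcripts, the 5 genes with most members, the 20 overlapping pairs of highest lower fold, and the genes of the lists with a member, with the gene of the nearest end added where it differed. NAXE and GPATCH4, the further microRNA names, TEKT2 and the chromosomes given were chosen after their values were seen. Some items that this rule picks are not reported here. The alternatives tried were limits on the −log10 q (2 or 1.3), 3′ UTR or Downstream peaks alone, the conservative table, no chromosome Y, other reference peaks, each gene once, the gene of the nearest end, overlap of at least 50% of both peaks, and 1 kb in place of 3 kb. The counting of overlaps and distances was tested on simulated data with planted answers. Python 3.11.15, numpy 2.4.6, scipy 1.17.1, pandas 2.3.3 and matplotlib 3.10.9 were used.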

Additional observations from a re-analysis of the deposited data

How the results depend on the processing

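Of 68 alternative values for 17 results, 39 moved by less than the error of the result, 28 moved by more and 1 changed sign. When the −log10 q had to reach 2 in both lists, the median widths were 385 bp (abiraterone) and 458 bp (Romidepsin). The median folds were 3.78 and 5.23, the overlapped shares 0% and 0%, and the genes in both lists 0. Only 229 and 30 members were left, and 2495 peaks in the whole Romidepsin list, so few overlaps could be seen. The overlapped share over all peaks at this limit was not computed. The Romidepsin list then had a share at 3′ ends of 1.20%, a median gene length of 23103 bp and 56.7% of members with the named transcript's end within 3 kb. Downstream peaks alone made up 0.0708% and 0.101% of the lists, with 56.2% and 75.0% within 3 kb of the named end and 3 genes in both lists. For these peaks 8.33% of the abiraterone members were overlapped and 27.1% reached a −log10 q of 2. In the Romidepsin list they had a median width of 323 bp and a median gene length of 10628 bp. The Romidepsin width difference from the other peaks, 31.0 bp over all members, was -25.0 bp for Downstream peaks alone, of which there are 92. The 3′ UTR peaks alone made up 1.55% of the Romidepsin list. With the gene of the nearest end the median lengths were 32769.5 and 23785 bp. With overlap of at least 50% of both peaks, 1.25% and 0.797% were overlapped. Within 1 kb the named end was found for 29.9% and 31.8%, and a −log10 q of at least 1.3 was reached by 87.3% and 10.1%. Apart from these alternatives' own construction (fewer peaks or another limit), the cause was not tested. The −log10 p in place of the fold was not run, since it is in another unit. No paired analysis was possible because there is 1 library for each treatment. With no read counts, the depth cannot be used to judge single peaks.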
